A study of Apostichopus japonicus with 9 samples.

Results

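Gut tissue of Apostichopus japonicus, a sea cucumber, was compared between animals in concentrated sea water (SD40) and animals in diluted sea water (SD20), the salinity extremes of the study. The comparison used SD40 replicates 1 to 3 and SD20 replicates 1 to 3, which are 6 of the 9 libraries. The 3 control libraries (SD30) were kept out of the main test and entered an alternative fit of all 9 libraries. Outside that fit, their values stand beside those of the extremes as a description. All animals had first been held at 15 °C in sea water labelled 30 and were then divided at random into groups of 20. For the extremes the salinity was moved by 2.5 every 6 h until it reached the labelled 40 or 20. Age, sex, origin and the time spent at the final salinity are not stated in the labels. Each library was made from the pooled RNA of 3 animals. Nothing in the labels tells whether the animals of different pools shared a tank, so p-values measure only how far pooled libraries spread, and that spread may be technical in part.

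Sea cucumbers are echinoderms whose body fluid follows the salinity of the sea water around them. Their cells therefore meet a change of salinity directly, swelling in dilute and shrinking in concentrated sea water unless they move ions, water and small organic solutes across their membranes. The intestine takes in sea water with the sediment it digests, so its lining is exposed from the inside as well. The comparison of the extremes asks which transcripts of this tissue differ most between the ends of that range.

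Poly(A) RNA was counted on gene models named by AJAP identifiers. The files do not pair these identifiers with gene names, and RefSeq's genes for the species hold none of them (0 matches), so no function is given to any gene here and neither epithelial nor other cell type markers could be checked. The totals of estimated counts were 3442227, 3636091 and 3728855 for SD20 and 4034952, 3487323 and 2834168 for SD40. In bulk tissue, fewer cells of a type and less RNA per cell cannot be told apart. Of the 26752 gene models with reads in these libraries, 13483 were abundant enough to be tested. Levels are given as CPM, the count relative to a library size scaled by TMM (a scaling that centres the bulk of genes), unless FPKM or a share of counts is named.

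The SD40 libraries did not form a uniform group. Over the tested genes, the log2(CPM + 1) values of SD40 replicate 1 had a mean Pearson correlation of 0.708 with the other SD40 libraries and of 0.773 with the SD20 libraries. SD40 replicate 3 also had a higher mean correlation with SD20 (0.753) than with its own group (0.735), while SD40 replicate 2 stood at 0.719 and 0.761. Each SD20 library resembled its own group more than SD40 (0.793 to 0.801 against 0.719 to 0.776). These correlations run across genes, which are not independent replicates. The spread between the libraries of a group, as the SD of log2(CPM + 1), was larger in SD40 than in SD20 for 65.3% of tested genes, with medians of 0.696 and 0.511. Counts of genes and their split by class are therefore given with and without SD40 replicate 1. Because that library was singled out for its likeness to SD20, leaving it out favours wider differences. Values without it are a description only.

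No gene passed the adjusted threshold of 0.05 between the extremes in edgeR's quasi-likelihood test (0 of 13483, 0.0%, lowest adjusted p = 0.288). Before adjustment, 885 genes (6.56% of those tested) had a p under 0.05, here called nominal, with SD40 higher in 442 (3.28%) and lower in 443 (3.29%). Without any difference, a p under 0.05 is reached at a rate of 0.05 on average, so many of the 885 may hold no difference. The absolute log2 fold change of the 885 had a median of 1.77, against 0.53 over all tested genes, and 348 of them differed at least 4-fold. The choice by p fixes this contrast, so it is a description only. DESeq2 called 115 genes (0.853%), 76 higher (0.564%) and 39 lower (0.289%) in SD40, and edgeR gave each of them a nominal p under 0.05 as well. All 3 SD40 libraries lay above all 3 SD20 libraries for 733 genes (5.44%) and below them for 1046 (7.76%), together 13.2% of tested genes. Without any difference, 3 libraries against 3 separate in this way with a probability of 0.1. With SD40 replicate 1 left out, a comparison added after the data were seen, DESeq2 called 575 of 14495 genes (3.97%), 218 higher and 357 lower in SD40. The remaining SD40 libraries then lay outside the SD20 range for 5036 genes (37.4%), 1947 above and 3089 below. A smaller group overlaps less readily, with a probability of 0.2 for such a separation without any difference.

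SD40 replicate 1 had a large bearing on these counts. Without it, 2284 of 14495 tested genes reached a nominal p under 0.05, with SD40 higher in 813 (5.61%) and lower in 1471 (10.1%). Of the 885, 657 were among them with the same direction. Leaving out SD20 replicate 3 gave the fewest, 585 of 14281, with 311 higher (2.18%) and 274 lower (1.92%). Each fit without a library filtered genes anew, so the number tested differs from the 13483 of the main fit. No gene passed the adjusted threshold in any of the 6 fits without a library (lowest edgeR adjusted p = 0.151, without SD40 replicate 3). Where a gene lay higher in SD40 at a nominal p under 0.05, SD40 replicate 1 was the lowest of its group, and so nearest to SD20, for 49.8% of the 442 genes (35.4% of all tested genes). SD40 replicate 3 was the lowest for 39.4% (32.6% of all tested) and SD40 replicate 2 for 10.9% (32.0% of all tested), the widest departure of the 3. Of the 443 genes on the other side, replicate 1 was the highest SD40 library for 46.0%, replicate 2 for 24.2% and replicate 3 for 29.8%, against 37.8%, 28.0% and 34.2% of all tested genes.

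AJAP01274, a gene model of 987 bases, had the smallest p of all. It stood at 3.87, 5.48 and 5.02 CPM in the SD20 libraries and at 88.1, 86.8 and 60.1 CPM in the SD40 libraries. The groups were far apart, and SD40 replicate 1 was the highest of all rather than close to SD20. Group means were 4.79 ± 0.831 and 78.3 ± 15.8 CPM (SD, n = 3 each), which differ by 4.02 on the log2 scale of the fit (SE 0.42, adjusted p = 0.288 by edgeR's quasi-likelihood test). The fold change kept to 3.89 to 4.23 when each library was left out. In a single fit that also held the SD30 libraries it was the one gene past the threshold (edgeR adjusted p = 0.0340), and its adjusted p ran from 7.7e-15 with DESeq2 to 1.00 without SD20 replicate 3. In FPKM, which also covers the controls, the mean of SD20 was 5.32 ± 1.04, that of SD30 6.86 ± 3.79 and that of SD40 71.0 ± 17.4 (SD, n = 3 each), and the highest SD30 library stood at 11.2.

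AJAP30105, of 1539 bases, was next among the genes higher in SD40. It had 1, 3 and 1 counts in the SD20 libraries and 190, 83 and 342 in the SD40 libraries, so it was close to undetected in dilute sea water. The gene passed the filter on low counts through SD40 alone and was chosen for its small p. Its p and fold values are therefore a description and no further support. Its levels were 0.429 ± 0.307 and 72.6 ± 60.1 CPM (SD, n = 3 each), which differ by 7.30 on the log2 scale of the fit (SE 0.93, adjusted p = 0.408 by edgeR's quasi-likelihood test). Leaving out SD20 replicate 2 gave 8.00, leaving out SD40 replicate 3 gave 6.42, and leaving out SD40 replicate 1 gave 7.55. The pooled levels differed 157-fold, with a 95% interval of 66.9 to 485 that covers counting error only. The controls held 25, 4 and 84 counts and reached from just above the SD20 libraries to the lower end of SD40. DESeq2 gave this gene an adjusted p of 6.2e-10, and over all alternatives it reached 1.00.

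AJAP27473, of 1251 bases, had the smallest p among the genes lower in SD40. It had 246, 412 and 141 counts in the SD20 libraries and 0, 2 and 1 in the SD40 libraries. No SD40 library came near an SD20 library. SD20 stood at 69.2 ± 37.7 CPM and SD40 at 0.360 ± 0.337 CPM (SD, n = 3 each), which differ by -7.54 on the log2 scale of the fit (SE 0.96, adjusted p = 0.408 by edgeR's quasi-likelihood test). With 3 counts in all of SD40, the pooled ratio was 209, with a 95% counting interval of 71.2 to 1014. The fold change was -8.43 without SD40 replicate 2 and -6.81 without SD40 replicate 1. Controls were widely scattered, with 5, 148 and 36 counts. AJAP27473 passed the filter on low counts through SD20 alone and was chosen for its small p. Its p and fold values are therefore a description and no further support.

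The next gene lower in SD40 was AJAP30309, of 2376 bases. Its estimated counts were 100.78, 69.64 and 45.28 in SD20 and 0, 0 and 1.45 in SD40. The values are not whole, so reads may be divided with a similar gene model and its level is uncertain. SD20 stood at 18.8 ± 8.77 CPM and SD40 at 0.199 ± 0.345 CPM (SD, n = 3 each), which differ by -6.99 on the log2 scale of the fit (SE 1.03, adjusted p = 0.596 by edgeR's quasi-likelihood test). Rounded to whole counts, SD40 held 1 count in all, so the pooled ratio of 169 had a counting interval of 30.1 to 6718. The fold change was -9.13 without SD40 replicate 3 and -6.32 without SD40 replicate 1. In the controls it had 0, 35.07 and 1 counts. DESeq2 gave AJAP27473 an adjusted p of 6.0e-09 and AJAP30309 one of 0.000145, and without some libraries both reached 1.00 in edgeR. AJAP30309 too passed the filter through SD20 alone and was chosen for its small p, so its values are no further support.

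By a rule on counts not scaled for depth, complete absence at one extreme was found on the SD40 side. With 0 counts in all 3 libraries of one group and at least 10 in each library of the other, 6 of 27269 gene models were absent from SD40 and 0 from SD20. Without SD40 replicate 1 the counts were 29 and 4 (together 0.121%), so this too depended on that library. A count of 0 is reached more easily at low depth. Of the 6 libraries, SD40 replicate 3 had the smallest total (2834168) and SD40 replicate 1 the largest (4034952). The 6 genes had mean SD20 levels of 6.38 to 22.3 CPM and gene models of 507 to 1427 bases. They passed the filter on low counts through SD20 alone and were chosen for their difference, so their p is no further support, and none passed the adjusted threshold (lowest edgeR adjusted p = 0.664). In 5 of them the estimated counts were not whole, and 2 had reads in every SD30 library. The pattern with any read in place of 10 held 175 of the 27269 gene models for SD40 and 65 for SD20. Detection at equal depth, given further on, was lower than in SD20 for SD40 replicates 2 and 3 but not for replicate 1.

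The most abundant of the 6 was AJAP22456, of 575 bases, with whole counts. SD20 held 10, 45 and 230 counts, SD40 held 0, 0 and 0, and the controls held 14, 45 and 49. SD20 replicate 3 alone held most of the SD20 reads. A group count of 0 allows up to 0.324 CPM in SD40 (3 counts over the group), so the pooled SD20 level was at least 74.5-fold higher, by counting error only (edgeR adjusted p = 0.716, and 0.000431 with DESeq2). Without SD20 replicate 3 the bound was 22.8-fold.

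**Figure D1:**
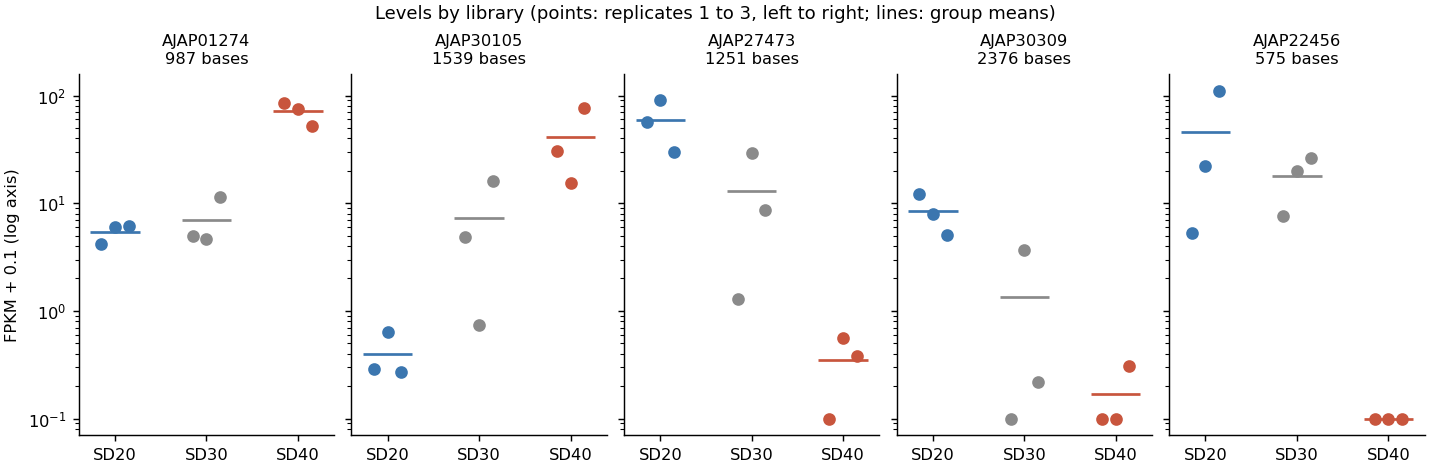
Authors' FPKM plus 0.1 on a log axis in each library for the 2 genes with the smallest p in each direction and for AJAP22456; points are replicates 1 to 3 from left to right, lines are group means, and SD30 was not in the test. AJAP01274 lies at 51.8 to 85.6 FPKM in SD40 and at 4.12 to 5.98 in SD20, while AJAP22456 is listed at 0 in all 3 SD40 libraries.

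Genes that stood higher in SD40 drew more reads than those that stood lower. Tested genes were divided into 5 equal classes (quintiles) by mean CPM over the 6 libraries, from 1.62 to 4.98 CPM in the lowest to 34.6 CPM and more in the highest. In the highest quintile, 6.90% of genes were higher in SD40 at a nominal p under 0.05 (186 genes) and 3.00% were lower (81 genes). In the lowest quintile, 0.964% were higher (26 genes) and 2.48% lower (67 genes), beside 3.28% and 3.29% over all tested genes. The excess of lower genes in the lowest quintile turned without SD20 replicate 3, to 45 higher and 38 lower. Over the 6 fits without a library its counts ran from 29 to 45 higher and from 38 to 349 lower, the last without SD40 replicate 1. The median level was 28.0 CPM for the 442 genes higher in SD40, 12.3 CPM for the 443 genes lower in SD40 and 11.5 CPM for all tested genes.

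The share of genes higher in SD40 was larger in each step up in abundance, through 2.08%, 2.56% and 3.89% in the middle quintiles, and this order held in each of the 6 fits without a library. The share lower in SD40 had no such order, with 3.52%, 3.74% and 3.67%. The lowest quintile lies close to the filter on low counts and had the widest scatter, with a median within-group SD of log2(CPM + 1) of 0.572 in SD20 and 0.825 in SD40, against 0.440 and 0.631 in the highest quintile. All libraries of SD40 lay above those of SD20 for 8.60% of the highest quintile and 3.82% of the lowest, and below them for 5.38% and 9.71%. DESeq2's 76 calls higher in SD40 included 47 in the highest quintile and 0 in the lowest. Its 39 calls lower in SD40 included 17 and 0. By its default, DESeq2 can set aside genes of low mean count before adjustment. Nothing is therefore read from the lack of calls in the lowest quintile.

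Abundance and direction were tied more strongly in the fit without SD40 replicate 1, the library singled out for its likeness to SD20. Its omission favours such a result. In that fit 13.1% of the highest quintile were higher in SD40 and 5.62% lower, while 1.52% of the lowest quintile were higher and 12.0% lower. The median log2 fold change of the highest quintile exceeded that of the lowest by 0.49 with all 6 libraries, by 1.02 without SD40 replicate 1, by 0.32 without SD20 replicate 3, by 0.32 without SD40 replicate 2 and by 0.22 without SD40 replicate 3. With classes by mean FPKM, which is per length, the excess was 0.57. It was -0.11 with limma on log2(FPKM + 1) of all genes, with no filter on low values. The 186 genes of the highest quintile that were higher in SD40 became 122 without SD40 replicate 2, 120 without SD20 replicate 1 and 86 without SD20 replicate 3. The lead of higher over lower calls in the highest quintile depended on scaling: with libraries scaled to their totals, 105 genes of that quintile were higher and 161 lower in SD40. A limma fit on log2(FPKM + 1), which differs in test, filter and classes as well, gave 117 and 266. Its share of higher genes was still the largest of the 5 classes with library totals (3.89%, against 0.519% in the lowest).

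Gene model length sorted the differences the other way. Lengths are mainly coding lengths, since 93.5% are multiples of 3. In the shortest quintile (153 to 618 bases), 103 genes were higher in SD40 (3.82%) and 58 lower (2.15%) at a nominal p under 0.05. In the longest quintile (1815 bases and more), 52 were higher (1.93%) and 121 lower (4.49%). Through the middle quintiles the share higher in SD40 went down from 3.75% to 3.56% and 3.34%, and the share lower in SD40 went up from 2.78% to 2.82% and 4.19%. The order of the middle quintiles was not kept without every library: without SD40 replicate 3 the shares higher in SD40 were 3.77%, 4.10%, 4.17%, 4.17% and 2.95% from short to long. In all 6 such fits the longest quintile had the smallest share of higher genes. The 442 genes higher in SD40 had a median length of 961.5 bases and the 443 genes lower in SD40 one of 1296 bases, beside 1065 bases over all tested genes.

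The median log2 fold change was 0.14 in the shortest quintile and -0.24 in the longest, against -0.04 over all tested genes. This difference of -0.38 became -0.77 without SD40 replicate 1, -0.20 without SD20 replicate 3, -0.17 without SD40 replicate 2 and -0.23 without SD40 replicate 3. Without SD40 replicate 1, 16.5% of the longest quintile were lower in SD40 (479 genes) and 2.52% higher (73 genes), while 4.90% of the shortest quintile were lower and 7.76% higher. Here too, leaving out the SD40 library most like SD20 favours a wider difference. The 121 lower genes of the longest quintile became 64 without SD20 replicate 3, and its 52 higher genes became 90 without SD40 replicate 3, beside 97 lower ones. Libraries scaled to their totals gave 51 higher (1.89%) and 123 lower (4.56%) genes in the shortest quintile and 29 (1.08%) and 227 (8.42%) in the longest. Over all tested genes the shares were then 1.78% and 6.21%. The lead of higher genes in the shortest quintile therefore depended on scaling, and the excess of lower genes in the longest quintile did not turn under this scaling, DESeq2 or its size factors (61 higher and 108 lower with the size factors, 89 and 146 with DESeq2). After a smooth trend of count on length was removed from each library, 107 genes of the longest quintile were higher (3.97%) and 69 lower (2.56%) in SD40. Over all tested genes of that fit the shares were close to these, at 4.28% and 2.62%. The difference of medians between the longest and the shortest quintile was then -0.0047.

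**Figure D2:**
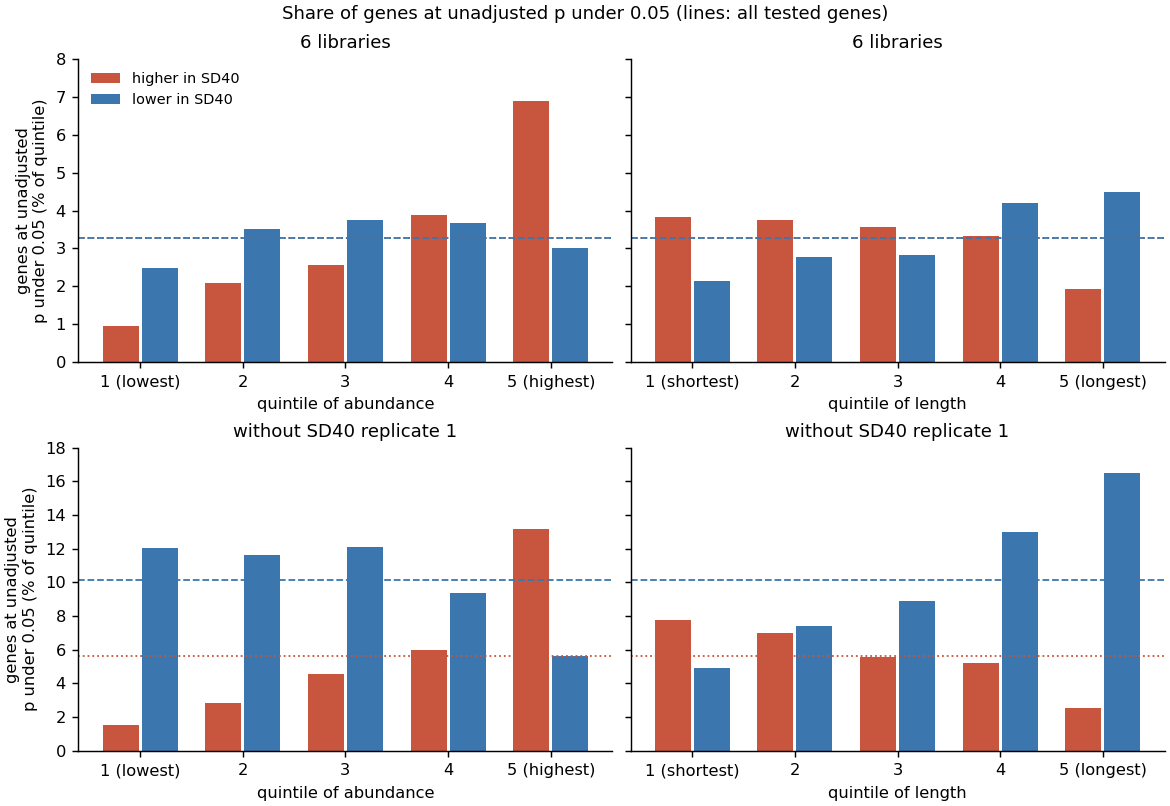
Percentage of the genes in each quintile of abundance (left) or gene model length (right) at a nominal p under 0.05, higher (red) or lower (blue) in SD40, with all 6 libraries (top) and without SD40 replicate 1 (bottom, on another scale); lines mark the shares over all tested genes. With 6 libraries the share higher in SD40 goes from 0.964% to 6.90% with abundance and from 3.82% to 1.93% with length.

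Abundance and length were related only loosely across genes (Spearman's rho = 0.122 over 13483 genes), with slightly more reads on longer models, as CPM is not divided by length. Both trends appeared in the medians within the classes of the other. The shortest genes of the highest abundance quintile had a median log2 fold change of 0.39 (486 genes), and the longest genes of the lowest abundance quintile one of -0.46 (410 genes). Within the highest abundance quintile the median went from 0.39 in the shortest to -0.03 in the longest genes. Within the longest quintile it went from -0.46 to -0.03 with abundance. The counts followed length less evenly: in the highest abundance quintile 28, 37, 45, 50 and 26 genes were higher in SD40 from short to long, of 486, 453, 497, 579 and 682. Among the longest genes of lowest abundance, 0 were higher and 13 lower in SD40 at a nominal p under 0.05. Without SD40 replicate 1 the corners were 0.67 and -1.14. With the length trend removed they were 0.33 and -0.27, and within an abundance quintile the medians then ran from -0.27 to -0.15 in the lowest and from 0.32 to 0.42 in the highest.

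**Figure D3:**
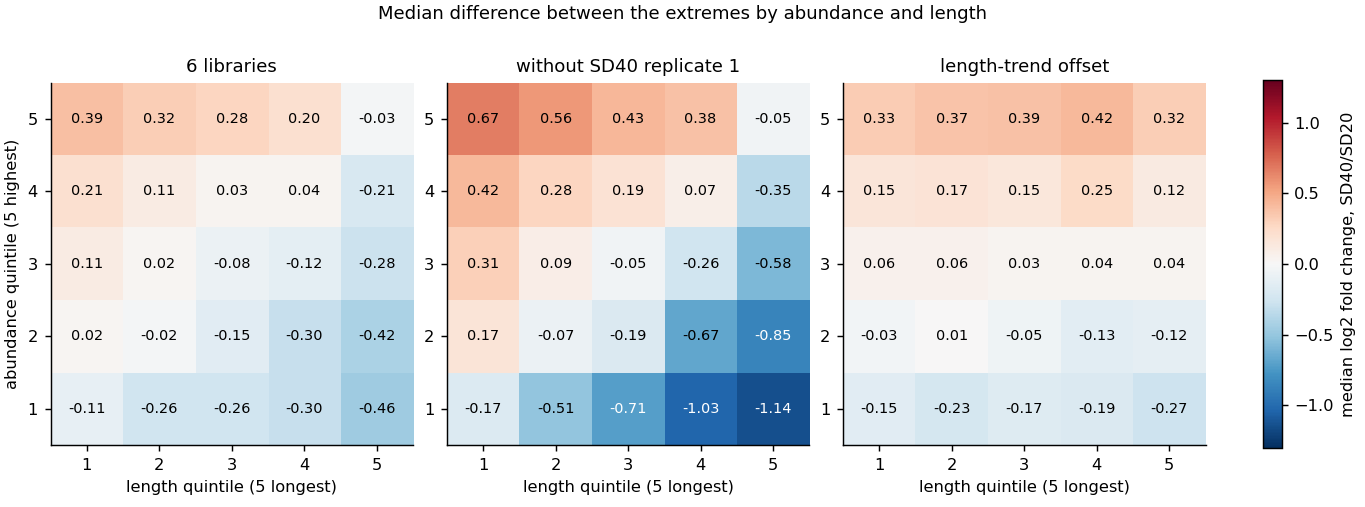
Median log2 fold change of SD40 against SD20 in each combination of abundance quintile (vertical) and length quintile (horizontal), with all 6 libraries, without SD40 replicate 1 and with the length trend of each library removed. With 6 libraries the medians run from -0.46 for long genes of low abundance to 0.39 for short genes of high abundance.

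The same trends were then measured library by library. The length contrast of a library is the median log2 deviation from the mean over the 6 libraries in the longest quintile minus that in the shortest. It was 0.22, -0.18 and 0.42 in SD20 and 0.43, -0.55 and -0.50 in SD40. SD40 replicate 1 had the highest value of all libraries, and the other SD40 libraries the lowest, so the SD20 values all lay within the range of SD40. Means were 0.155 ± 0.304 in SD20 and -0.207 ± 0.550 in SD40 (SD, n = 3 each), a difference of -0.36 that was within the spread between libraries (exact two-sided permutation p = 0.4, and 0.7 after Benjamini-Hochberg adjustment over 7 library measures). The smallest p that 3 libraries against 3 can give is 0.1. The SD30 libraries stood at -0.37, -0.36 and -0.14.

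The abundance contrast, the highest minus the lowest abundance quintile, was -0.28, -0.04 and -0.49 in SD20 and -0.41, 0.48 and 0.62 in SD40. Again SD40 replicate 1 lay among the SD20 libraries and the other SD40 libraries above them. Means were -0.266 ± 0.226 and 0.226 ± 0.559 (SD, n = 3 each), a difference of 0.49 (exact permutation p = 0.3, adjusted 0.7). The SD30 libraries stood at 0.63, 0.55 and 0.12. Without SD40 replicate 1 the differences between the groups were -0.67 for length and 0.90 for abundance. The exact permutation p was then 0.2 for length and 0.1 for abundance, and 0.1 is the smallest that 3 libraries against 2 can give. SD40 replicate 1 was singled out on these same data, so these p are no support. The differences were -0.20 and 0.28 without SD40 replicate 2, and -0.24 and 0.26 without SD40 replicate 3. The length difference was -0.24 without SD20 replicate 3. The contrasts are built from the same genes and libraries as the fold changes above, and their part in the differences of single genes was not tested.

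**Figure D4:**
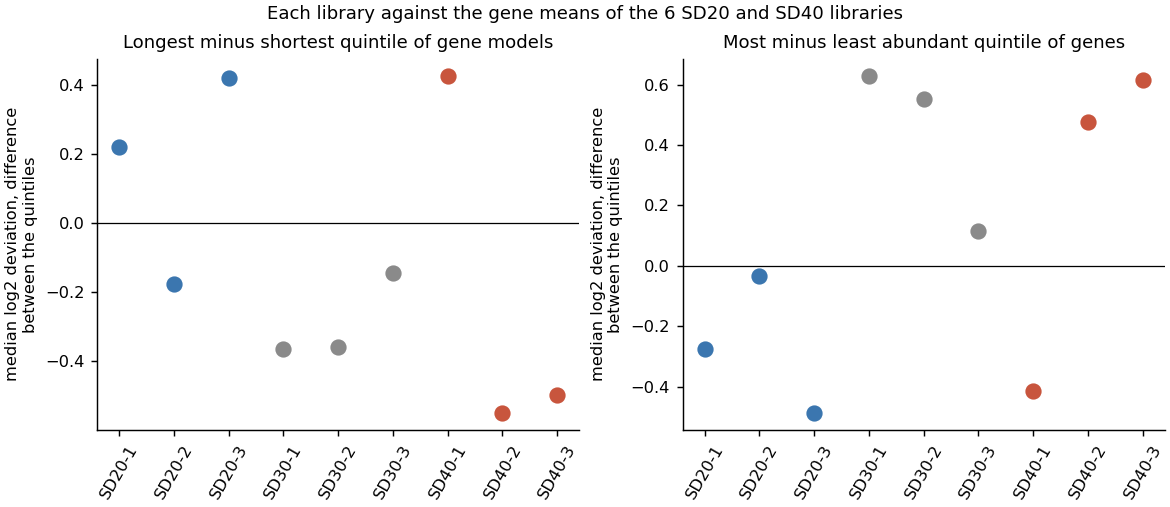
Length contrast (left) and abundance contrast (right) of each library, in log2 units, relative to the gene means of the SD20 and SD40 libraries; each point is 1 library, and SD30 was not tested. SD40 replicate 1, at 0.43 and -0.41, lies with SD20 replicate 3, at 0.42 and -0.49, and away from the other SD40 libraries.

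The other 5 library measures were tested in the same way, with the same smallest p of 0.1. At 2800000 reads, 21138, 20211 and 22120 genes were expected in SD20 and 21337, 18582 and 18943 in SD40. SD40 replicate 1 was again within the SD20 range and the others below it (means 21156 ± 954 and 19621 ± 1498, SD, n = 3 each, exact permutation p = 0.3, adjusted 0.7). The longest quintile took 32.3% to 34.9% of counts in SD20 and 23.4% to 38.8% in SD40 (exact permutation p = 0.8, adjusted 0.933), and the shortest took 17.7% to 19.2% and 14.3% to 26.7% (exact permutation p = 1.0, adjusted 1.0). SD40 spanned a wider range than SD20 in both shares. The 10 most abundant genes of each library took 29.6% to 31.4% in SD20 and 24.0% to 42.3% in SD40 (exact permutation p = 0.6, adjusted 0.84). TMM factors were 1.07, 1.07 and 1.20 in SD20 and 0.970, 0.869 and 0.866 in SD40. They were the one measure whose groups did not overlap, at the smallest possible exact p of 0.1 (adjusted 0.7).

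The most abundant transcripts did not separate the extremes. AJAP07929, of 4554 bases, took 9.29%, 7.71% and 9.92% of counts in SD20 and 12.5%, 11.3% and 2.79% in SD40. Replicates 1 and 2 of SD40 lay above SD20 and replicate 3 far below it. The fitted log2 difference was 0.27 (SE 0.52, adjusted p = 0.941 by edgeR), and it ran from -0.019 without SD40 replicate 2 to 0.74 without SD40 replicate 3. AJAP12149, of 1587 bases, took 7.36%, 7.0% and 6.33% in SD20 and 12.4%, 9.44% and 3.70% in SD40, with the same order of the SD40 libraries. In FPKM it stood at 45692, 43540 and 39345 in SD20 and 77210, 58742 and 22798 in SD40. Per length it had the highest mean of the 5 in both groups, though AJAP00345 was higher in SD40 replicate 3 (81409 FPKM). The fitted log2 difference was 0.57 (SE 0.44, adjusted p = 0.847 by edgeR), 0.38 without SD40 replicate 1 and 0.96 without SD40 replicate 3.

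AJAP26202, a long model of 11460 bases with whole counts, took 4.70%, 5.91% and 3.27% in SD20 and 4.63%, 5.0% and 5.73% in SD40. All SD40 shares of this gene lay within the range of SD20, while on the TMM-scaled level SD40 replicates 2 and 3 lay above it. The fitted log2 difference was 0.43 (SE 0.35, adjusted p = 0.856 by edgeR), and it was 0.20 without SD20 replicate 3 and 0.68 without SD20 replicate 2. AJAP21412, of 2094 bases, took 3.17%, 2.13% and 2.67% in SD20 and 5.32%, 1.74% and 0.522% in SD40. By share, a single SD40 library was thus above SD20 and the others below. On the TMM-scaled level SD40 replicate 2 (20303 CPM) lay within the SD20 range (20167 to 30199 CPM). The fitted log2 difference was 0.17 (SE 0.71, adjusted p = 0.977 by edgeR) and -0.77 without SD40 replicate 1. AJAP00345, a short model of 522 bases with whole counts, took 1.28%, 1.0% and 1.12% in SD20 and 1.18%, 1.27% and 4.13% in SD40. Only SD40 replicate 3 stood apart from the other 5 libraries. The fitted log2 difference of 1.27 (SE 0.56, adjusted p = 0.757 by edgeR) became 0.45 without that library. Together these 5 transcripts took 23.3% to 25.8% of counts in SD20 and 36.0%, 28.8% and 16.9% in SD40. They were chosen for abundance, not for direction.

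A smaller set of genes kept a nominal p under 0.05 and its direction in each of the 6 fits without a library, 115 of the 442 higher and 106 of the 443 lower in SD40. The 115 had a median length of 969 bases and a median level of 28.4 CPM, with 50 in the highest abundance quintile and 7 in the lowest. The 106 had medians of 1279 bases and 14.1 CPM, with 21 and 12. Of the 115, 27 were in the shortest and 14 in the longest quintile, and of the 106, 12 and 30. Each quintile is 1 of 5 equal classes of the tested genes, a share that the 21 of 106 and the 27 of 115 lie near. The full 442 had 103 in the shortest and 52 in the longest quintile, and the 443 had 58 and 121. The smaller set was chosen after the values were seen and overlaps in data with the fits that define it, so its counts are a description.

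Differences close to on and off were few in both directions. Of the 442 genes higher in SD40, 15 had a mean below 1 CPM in SD20 (19 over all tested genes) and 29 differed at least 16-fold. Of the 443 lower genes, 34 had a mean below 1 CPM in SD40 (41 over all tested genes) and 25 differed at least 16-fold. Genes with so low a mean pass the filter on low counts mainly through the other group, so their small number depends on that filter. Estimated counts were whole in all 6 libraries for 35.1% of the genes higher in SD40, 46.5% of those lower and 44.6% of all tested genes. The remaining genes are uncertain where similar gene models exist.

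Control libraries lay between the extremes for many of these genes. With all 9 libraries on 1 TMM scale, the SD30 mean was between the SD20 and SD40 means for 58.1% of the genes higher in SD40 and 58.7% of those lower, beside 25.9% of all tested genes. Genes chosen for a large difference leave more room between the groups, so nothing is read from this excess. For 35.7% of the genes higher in SD40 the SD30 mean exceeded both extremes, and for 6.11% it was below both. For those lower in SD40 the shares were 7.67% and 33.6%. Over all tested genes the SD30 mean exceeded both in 30.9% and was below both in 43.2%. The shares over all tested genes were not split by direction, so nothing is read from the side on which SD30 lay.

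The balance of directions depended on how libraries were scaled. TMM gave 442 higher and 443 lower genes at a nominal p under 0.05 (49.9% higher), and library totals gave 240 and 837 (22.3% higher). Library totals moved the median log2 fold change of all genes from -0.04 to -0.33. DESeq2's size factors in the same edgeR test gave 527 and 366 (59.0% higher), and the removal of the length trend gave 577 and 353 (62.0% higher), with the median at 0.08. Of the 885 genes, 683 kept their direction and a nominal p under 0.05 with library totals, 808 with DESeq2's size factors and 769 with the length trend removed. How many genes were higher at which extreme is therefore relative to the scaling.

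**Figure D5:**
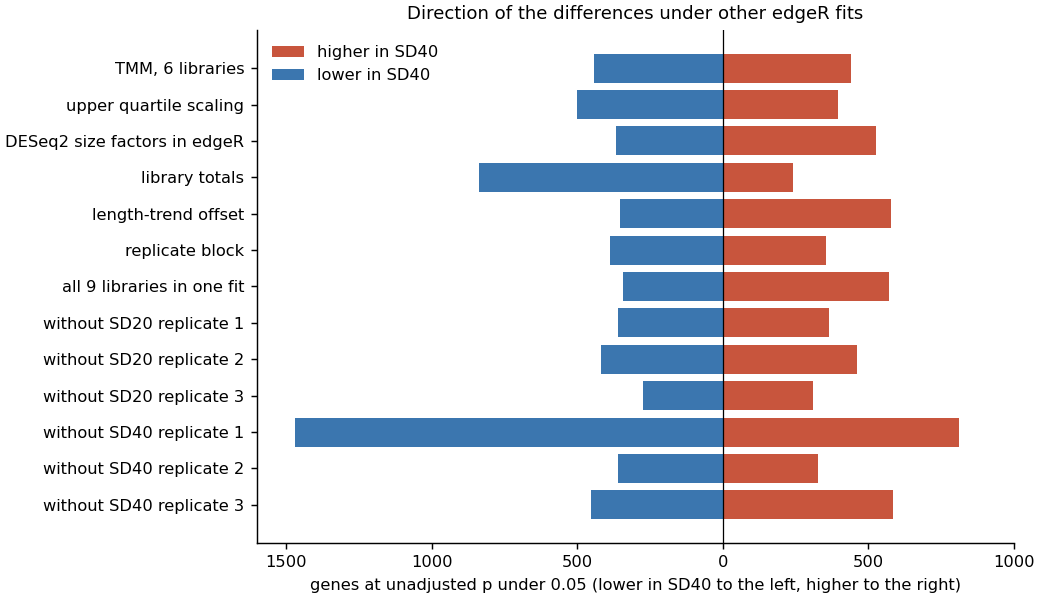
Number of genes at a nominal p under 0.05 that were lower (left) or higher (right) in SD40 under other scalings and fits of edgeR. Of 13483 tested genes, the counts are 443 and 442 with TMM and 6 libraries, and 837 and 240 with library totals. They are 1471 and 813 of 14495 tested genes without SD40 replicate 1.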

How the data were processed

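Intestinal poly(A) RNA of pooled animals was sequenced in 9 libraries, and 6 of them (3 SD20 and 3 SD40) entered the test. Per the file headers, the authors deposited an expected count for each gene model, which is often not a whole number, beside its FPKM and its length. The deposited FPKM agreed within 5% with a value recomputed from count and length for 92.0% of entries of 10 or more counts. The submitters' processing notes name CASAVA 1.5. The aligner, the counting program, the genome build and the annotation are not stated in the labels or headers. Genes missing from a library's table were given a count of 0.

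Counts were rounded, and edgeR 4.0.16 (R 4.3.3) fitted the 6 libraries with group as the only term, using filterByExpr, TMM and the robust quasi-likelihood test, with Benjamini-Hochberg adjustment over 13483 genes and a threshold of 0.05. The fitting script was checked on simulated data, with pass conditions set at a lower variation than that of these data. The check therefore does not measure the power to call genes here. The biological coefficient of variation was 65.6%. The SE was taken as the size of the log2 value over the square root of its F statistic. Counting intervals are exact (Clopper-Pearson, 95%), and intervals and floors cover counting error only. Alternatives were DESeq2 1.42.0, limma 3.58.1 (on FPKM with pseudocounts of 1 or 0.1 before log2, or voom), other scalings and filters, a lowess offset for length in each library, a replicate block and the omission of each library. Named genes were the 2 with the smallest p in each direction, the 5 with the highest mean share of counts, and the most abundant gene present at 1 extreme only. No gene list could be matched to the identifiers, and no sequence could be tied to them. The comparison, its classes and these rules were chosen with earlier results of these data known.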

Additional observations from a re-analysis of the deposited data

How the results depend on the processing

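Beside edgeR with 6 libraries (0 genes past the adjusted threshold, 885 at a nominal p under 0.05), a fit of all 9 libraries called 1 gene and DESeq2 called 115, and none of the rest of the 21 settings called any. DESeq2 with SD40 replicate 1 left out, added after the data were seen, called 575, with 1038 higher and 1692 lower at a nominal p under 0.05. Genes higher in SD40 at a nominal p under 0.05 numbered 240 with library totals, 693 without a filter (705 lower), 714 with DESeq2 and 191 against a 2-fold minimum (165 lower). Those lower in SD40 numbered 837 with library totals. In limma fits they numbered 1177 on log2(FPKM + 1), 1123 on log2(FPKM + 0.1) and 1307 on log2(FPKM + 1) without a filter. Leaving out each library gave 311 to 813 higher and 274 to 1471 lower genes, of 14281 to 15244 tested. The excess of the highest over the lowest abundance quintile in median log2 fold change (0.49) was -0.11 with limma on log2(FPKM + 1) without a filter, and 0.22 to 1.02 without each library. The difference between the longest and the shortest quintile (-0.38) was -0.77 to -0.17 without each library and negative under every alternative, at -0.0047 with the length trend removed, which removes it by construction. The length contrast between the groups (-0.36) was -0.67 to -0.20 and the abundance contrast (0.49) was 0.26 to 0.90 without each library, and -0.36 to -0.34 and 0.47 to 0.53 under 4 other gene choices.

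Signs turned for transcripts far from the threshold. AJAP07929 (0.27) was -0.020 with library totals, -0.019 to 0.74 without each library, and -0.28 in each of the limma fits on FPKM. AJAP21412 (0.17) was -0.073 with library totals, -0.63 in the limma fits on FPKM, -0.55 with library weights, -0.31 with the replicate block and -0.77 to 0.66 without each library. The SD40 minus SD20 difference in the share of the longest quintile (-2.26 percentage points) was -5.88 to 1.84 without each library, and that of the shortest quintile (1.24) was -2.35 to 3.89, with the sign turned without SD40 replicate 3. For the 10 most abundant genes it was -0.0534 without the 100 most abundant genes and -0.264 (SD40 replicate 1) to 8.91 without each library. The causes were not tested.

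Same-numbered libraries deviated from their group means with correlations of 0.0505, 0.211 and -0.0775. For differently numbered libraries these ran from -0.293 to 0.262. The labels state no pairing, and so few values cannot decide whether the numbers pair the samples. With the replicate number as a block, 739 genes had a nominal p under 0.05 and 0 passed. A depth of 2834168 to 4034952 counts limits the lowest abundance quintile, near the filter.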
